A study of Oryza sativa with 40 samples.

Results

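The AUX/IAA and ARF genes of rice encode interacting proteins of the nuclear auxin response. They were chosen by name, with earlier results of these data known. Where a gene had several probe sets, the one with the highest mean signal over all arrays was taken. Members were the genes of the array that RefSeq lists as IAA or ARF with a number, with or without the prefix Os. RefSeq names 28 AUX/IAA and 23 ARF genes in this way, and 43 of these 51 were measured, 26 AUX/IAA and 17 ARF genes, of 17905 genes with a probe set of their own and 57194 rice probe sets in all. OsIAA11, OsIAA29, OsARF5, OsARF6, OsARF8, OsARF19, OsARF21 and OsARF25 were not analysed here because no probe set named them alone. The levels come from 40 Affymetrix Rice Genome arrays of Nipponbare rice. Of these, 20 were of flag leaves from 3-month-old plants, grown in the field and then entrained in a greenhouse. Temperatures there were 32 °C in the light and 30 °C in the dark. The other 20 were of leaves of 17-day-old greenhouse seedlings, kept at 28 °C in the light and 25 °C in the dark. Each tissue was sampled every 4 h from 8 h to 44 h, counted from the midnight before sampling, with 2 biological replicates at each of the 10 time points and light from 8 h to 20 h of a day. Tissue, plant age and growth conditions differ together in these samples and cannot be told apart. In leaf RNA, fewer cells that express a gene and less RNA per cell cannot be told apart either.

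AUX/IAA proteins are short-lived repressors. They bind ARF proteins, which sit on the promoters of auxin-responsive genes, and recruit TOPLESS-type co-repressors. Auxin joins an AUX/IAA protein to an F-box receptor of the TIR1/AFB group, the repressor is degraded, and the ARF is released. Many AUX/IAA genes are themselves transcribed quickly after an auxin stimulus, so the pathway includes a feedback loop. ARF genes respond less, and some ARF transcripts are cut by the small RNAs miR160, miR167 and tasiR-ARF.

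Signals are array intensities on a linear scale, scaled by the authors to a target of 500 on each array. Array medians were 48.8 to 64.4 in flag leaves and 50.5 to 68.2 in seedling leaves, and replicate arrays correlated with r of 0.976 to 0.988 in flag leaves and 0.962 to 0.990 in seedling leaves. Of 6 marker genes of leaf mesophyll measured, RBCS1 lay below a mean of 100 in both tissues and 5 were tested. Of these 5, 4 were higher and none lower in flag leaves, where 39.3% and 38.3% of all probe sets tested were. The summed signals of the 6 were 80628 to 193480 in flag leaves and 39062 to 110250 in seedling leaves. Of 6 shoot meristem genes measured, the 5 KNOX genes lay below a mean of 100 in both tissues, and FON1, a receptor kinase gene, averaged 987 in flag leaves and 559 in seedling leaves (0.75 ± 0.08, adjusted p = 1.2e-08). The seedling arrays of 44 h stand apart from the others of their tissue, since both lay above the other 18 arrays for 8.80% of the tested probe sets and below them for 12.8%. Results in seedling leaves are therefore given with and without that time point where it matters.

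Most of the repressor genes were lower in flag leaves than in seedling leaves. A probe set was tested where its mean signal reached 100, and tissue levels were compared with limma on log2(signal + 32), as the mean over the flag time points minus the mean over the seedling time points. Of the 16 AUX/IAA genes that reached this signal in both tissues, 12 were lower in flag leaves, 2 were higher and 2 did not pass the test at an adjusted p of 0.05. Among all 21726 probe sets that did so, 34.5% were lower and 40.4% higher in flag leaves. The median difference was -0.65 for these AUX/IAA genes and 0.04 for all such probe sets. Among these genes, OsIAA9 reached a mean of 100 in seedling leaves only through its 44 h arrays. A further 4 AUX/IAA genes, OsIAA4, OsIAA8, OsIAA18 and OsIAA31, reached a mean of 100 in seedling leaves alone and were all lower in flag leaves, as genes that pass the filter in this way had to be. With them, 16 of 20 were lower and 2 higher, where 38.3% and 39.3% of all 25948 probe sets tested were. The remaining 6, OsIAA7, OsIAA12, OsIAA14, OsIAA16, OsIAA20 and OsIAA26, averaged below 100 in both tissues and were not tested.

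OsIAA30 showed the largest difference of the family. Its signals were 4.8, 116.2 and 313.3 (lowest, median and highest) in flag leaves, against 698.3, 1172.75 and 3275.3 in seedling leaves. Every flag array was thus below every seedling array, and the means were 11.6-fold apart. The difference was -3.26 ± 0.13 (SE, log2 scale, adjusted p = 2.1e-17). OsIAA31, the next protein-coding gene on the same chromosome, had 2, 48.05 and 109.8 in flag leaves, against 267.5, 348 and 1281 in seedling leaves. Its flag signals lay around the median signal of an array at most hours, with a difference of -2.52 ± 0.11 (adjusted p = 1.1e-16). OsIAA8 had 6.5, 46.1 and 210.9 in flag leaves and 223.4, 626.35 and 1046.3 in seedling leaves, a difference of -2.87 ± 0.14 (adjusted p = 1.7e-15). It also had no overlap between the tissues. OsIAA8 and OsIAA31 passed the filter through seedling leaves alone, so both had to be lower in flag leaves.

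Among the genes well above background in both tissues, OsIAA6, whose overexpression has been tied to drought tolerance in rice, had 90.4, 989.45 and 3119.9 in flag leaves and 1909.1, 3670.85 and 5540.7 in seedling leaves. The flag mean was below the seedling mean at 10 of 10 time points, but the gap narrowed at night, and the difference over all hours was -2.04 ± 0.09 (adjusted p = 1.3e-16). OsIAA3, a stabilised form of which makes rice insensitive to auxin, had 3134.7, 5384.9 and 8190 in flag leaves, against 11479.1, 15103.8 and 19850.8 in seedling leaves. Its difference was -1.50 ± 0.10 (adjusted p = 6.4e-13), with all flag arrays below all seedling arrays. This complete separation held for 7 AUX/IAA genes, namely OsIAA3, OsIAA8, OsIAA15, OsIAA18, OsIAA21, OsIAA30 and OsIAA31, and for 6.63% of all probe sets tested. Of these, OsIAA8, OsIAA18 and OsIAA31 were tested through their seedling level alone, which favours such a separation, and the other 4 passed in both tissues. It was found for no ARF gene.

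Only 2 AUX/IAA genes were higher in flag leaves. OsIAA25 had 1523, 4092.05 and 6787.9 in flag leaves and 1266.6, 1830.85 and 3447.6 in seedling leaves. The ranges overlapped, since the flag signal dropped at 16 h and 40 h, and the difference was 0.90 ± 0.06 (adjusted p = 2.8e-12). OsIAA13, in which a stabilising mutation reduces lateral root formation, had 2136.5, 7601.5 and 18489.4 in flag leaves and 2331.5, 3792.55 and 10896.5 in seedling leaves. Its difference was 0.83 ± 0.08 (adjusted p = 1.6e-09), and the gap was widest at 16 h and 40 h. OsIAA5 (0.02 ± 0.06, adjusted p = 0.75) and OsIAA9 (0.07 ± 0.11, adjusted p = 0.56) did not pass the test. Without the 44 h arrays OsIAA9 was called higher in flag leaves (0.36 ± 0.11, adjusted p = 0.0070). It passed the filter in seedling leaves only through those arrays, for its seedling median was 89 and no other seedling array was above 114.8. Without 44 h OsIAA9 thus stood as a gene tested through flag leaves alone, which had to be higher there. No difference is read from that call. OsIAA10 and OsIAA19 were called lower by small margins (-0.16 each) and lost the call without 44 h (adjusted p = 0.19 and 0.40).

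**Figure D1:**
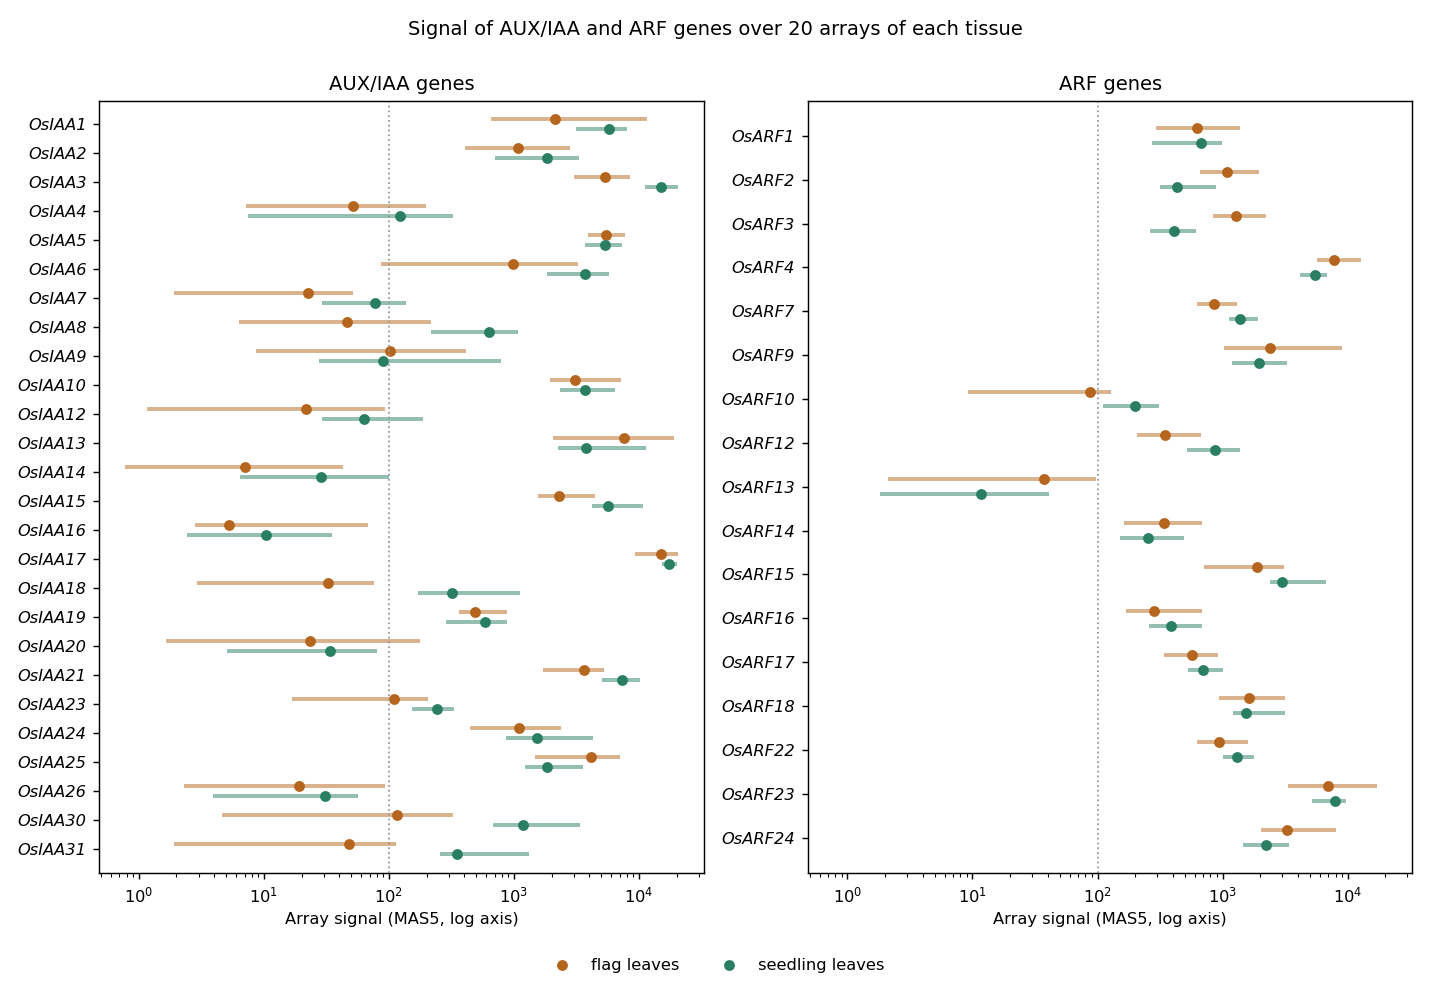
Array signal of 26 AUX/IAA genes (left) and 17 ARF genes (right) on a log axis, with a point for the median and a bar from the lowest to the highest of 20 arrays, flag leaves above seedling leaves in each row. The dotted line marks a signal of 100. The bars do not touch for 7 AUX/IAA genes, all lower in flag leaves, and for OsARF3, which is higher in flag leaves.

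The ARF genes had no common direction. Of the 15 with a mean of at least 100 in both tissues, 6 were lower in flag leaves, 6 were higher and 3 did not pass, with a median difference of 0.04. OsARF10 passed through seedling leaves alone and was lower, and OsARF13 was below 100 in both tissues. Of all 16 tested, 7 were lower and 6 higher, and without the 44 h arrays 7 were lower and 7 higher, since OsARF18 then passed (0.14 ± 0.04, adjusted p = 0.0021).

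The gene with the largest rise was OsARF3, of the ETTIN-like group that tasiR-ARF targets. It had 870, 1285.6 and 2146.8 in flag leaves, against 272, 406.85 and 595.1 in seedling leaves. All flag arrays lay above all seedling arrays, as for 2.55% of all probe sets tested, and the difference was 1.63 ± 0.06 (adjusted p = 3.2e-17). OsARF2, of the same group, had 684.8, 1081.85 and 1899.4 in flag leaves and 327, 431.3 and 853.2 in seedling leaves, a difference of 1.22 ± 0.08 (adjusted p = 2.2e-12). The flag mean was the higher at all 10 time points. The group was not uniform, for OsARF15 had 733.4, 1871.7 and 2994 in flag leaves and 2477, 2996.5 and 6450.9 in seedling leaves, and was lower in flag leaves by a log2 difference of -1.07 ± 0.05 (adjusted p = 1.2e-15). OsARF14, the remaining member of the group, was higher by 0.38 ± 0.08, and with a single replicate series that call was lost.

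OsARF12, which is a target of miR167 and counts among the activating ARFs, had 213.3, 343.85 and 644.1 in flag leaves and 538.1, 873.7 and 1334.3 in seedling leaves. It was lower in flag leaves at 10 of 10 time points, with a difference of -1.10 ± 0.07 (adjusted p = 3.6e-13). OsARF17, the other miR167 target measured, had a smaller difference of -0.35 ± 0.05 (adjusted p = 1.3e-06). OsARF10, a target of miR160, had 9.5, 87.3 and 123.2 in flag leaves and 113.8, 198.45 and 297.4 in seedling leaves. OsARF10 passed the filter through seedling leaves alone and so had to be lower in flag leaves (-1.01 ± 0.11, adjusted p = 1.2e-08). Among the other miR160 targets tested, OsARF22 was lower (-0.42 ± 0.06, adjusted p = 5.3e-07). OsARF18 did not pass the test when all hours were used (0.04 ± 0.03, adjusted p = 0.29). OsARF23 and OsARF24, which act together on a formin gene that organises actin, differed by -0.10 ± 0.06 (adjusted p = 0.15) and 0.58 ± 0.06 (adjusted p = 2.2e-09). OsARF24 had 2107.6, 3263.85 and 7823.3 in flag leaves and 1503.3, 2209.3 and 3259 in seedling leaves, with overlapping ranges. OsARF4, a regulator of grain size, was higher by 0.50 ± 0.04 (adjusted p = 2.4e-10). Under quantile normalization the difference of OsARF4 was 0.33, and in a cosine model without replicate 2 that of OsARF24 was 0.39 (0.57 in that model with both), and each kept its call.

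Rhythms were fitted with a cosine and sine of 24 h over both replicates, and the amplitude is the distance from the mean to the peak on the log2 scale. In flag leaves 13 of 16 tested AUX/IAA genes and 13 of 15 tested ARF genes were rhythmic at an adjusted p of 0.05, where 69.5% of all tested probe sets were. In seedling leaves the counts were 12 of 20 and 6 of 16, where 42.5% of all were, and without 44 h 12 of 20 and 9 of 16, where 49.3% of all were. The median amplitude in flag leaves was 0.59 for AUX/IAA, 0.51 for ARF and 0.43 for all tested probe sets, and in seedling leaves 0.43, 0.24 and 0.24. With 1 replicate series left out, the counts of rhythmic genes in flag leaves were 9 and 10 for AUX/IAA and 7 and 9 for ARF, and in seedling leaves 3 and 5 for AUX/IAA and 0 and 2 for ARF. The fitted amplitude was larger in flag than in seedling leaves for 12 of 16 AUX/IAA genes and 13 of 15 ARF genes tested in both. The share of all probe sets for which this held was not counted, so neither count can be placed against it. Over all probe sets tested in both tissues, the median amplitude was 0.43 in flag leaves and 0.23 in seedling leaves. A larger median in flag leaves was thus not particular to these families. By the study's diurnal criteria, applied to all probe sets with no filter, 11 of 26 AUX/IAA and 9 of 17 ARF genes were diurnal in flag leaves, where 19.0% of all probe sets were. In seedling leaves 5 and 4 were diurnal, where 9.54% of all were, and OsIAA1, OsARF12 and OsARF24 were diurnal in both tissues. A mean of 100 in either tissue was reached by 25948 of the 57194 probe sets and by 36 of the 43 members, so these last shares do not compare like sets. The criteria as rewritten here called 10845 probe sets in flag leaves and 5454 in seedling leaves, fewer than the study itself reports in each tissue.

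Whether the rhythm itself differs between the tissues was tested over all 40 arrays, with timing and amplitude together. It differed for 10 of 20 AUX/IAA genes and 11 of 16 ARF genes, where 41.8% of all tested probe sets differed. The size of the difference is given as the amplitude of the cosine that separates the tissues. With 1 replicate series left out, the test called 2 and 4 AUX/IAA genes and 2 and 5 ARF genes.

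OsIAA1 had the second largest amplitude among the repressors in flag leaves. Its flag signals were 683.9 to 1631.1 at 12, 16, 36 and 40 h, in the light, and 6909.6 to 11064.8 at 8, 28 and 32 h. In seedling leaves they were 3255.9 to 5563 and 6028.3 to 7148.8 at the same hours. The flag arrays were therefore far below the seedling arrays by day and at or above them at the end of the night, and the seedling series moved less. The amplitude was 1.86 ± 0.15 in flag leaves (adjusted p = 3.1e-08) and 0.51 ± 0.08 in seedling leaves (adjusted p = 0.00020), with the peak at 4.0 ± 0.3 h and 4.5 ± 0.6 h, and the rhythms differed by 1.36 ± 0.18 (adjusted p = 1.5e-06). The seedling call was lost without replicate 2.

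OsIAA6 had the largest amplitude, 1.92 ± 0.21 in flag leaves (adjusted p = 9.8e-07), with a peak at 2.6 ± 0.4 h. The flag replicates were at 3119.9 and 3040.2 at 28 h and at 90.4 and 217.6 at 40 h, a 20.0-fold range of the means. In seedling leaves the lowest and the highest time point were 2.71-fold apart, and the amplitude of 0.39 ± 0.13 (adjusted p = 0.048) lost its call under 25 of 40 alternatives, among them the loss of either replicate series, of any time point but 36 h and 44 h, and of most single arrays. Without 44 h the seedling amplitude was 0.50 ± 0.08 (adjusted p = 0.00042). The rhythms differed by 1.66 ± 0.26 (adjusted p = 1.8e-05).

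OsIAA9 had 344.9 and 398.1 in the flag replicates at 24 h, and 8.9 and 31.3 at 36 h. In seedling leaves all arrays up to 40 h lay between 28.8 and 114.8, and the 2 arrays of 44 h at 669.4 and 762.7. A night rhythm was thus present in flag leaves (1.55 ± 0.15, adjusted p = 2.1e-07, peak at 2.6 ± 0.3 h), and in seedling leaves the rhythm did not pass, with 0.35 ± 0.26 over all hours (adjusted p = 0.51) and 0.15 ± 0.14 without 44 h (adjusted p = 0.65). The rhythms differed by 1.66 ± 0.33 (adjusted p = 0.00045), a call that was lost without replicate 2.

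OsIAA13 ran the other way. In flag leaves it had 17133.8 to 18489.4 at 16 and 40 h and 2136.5 to 4410.2 at 8 and 32 h. In seedling leaves the same hours gave 3419.8 to 6358.4 and 2331.5 to 3710.4. The tissues were thus alike at the start of the light and far apart in the afternoon of both days. The amplitude was 1.08 ± 0.16 in flag leaves (adjusted p = 3.8e-05) and 0.55 ± 0.11 in seedling leaves (adjusted p = 0.0018), with peaks at 16.9 ± 0.6 h and 21.1 ± 0.8 h. The rhythms differed by 0.97 ± 0.21 (adjusted p = 0.0015), and with a single replicate series this call and the seedling one were lost.

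**Figure D2:**
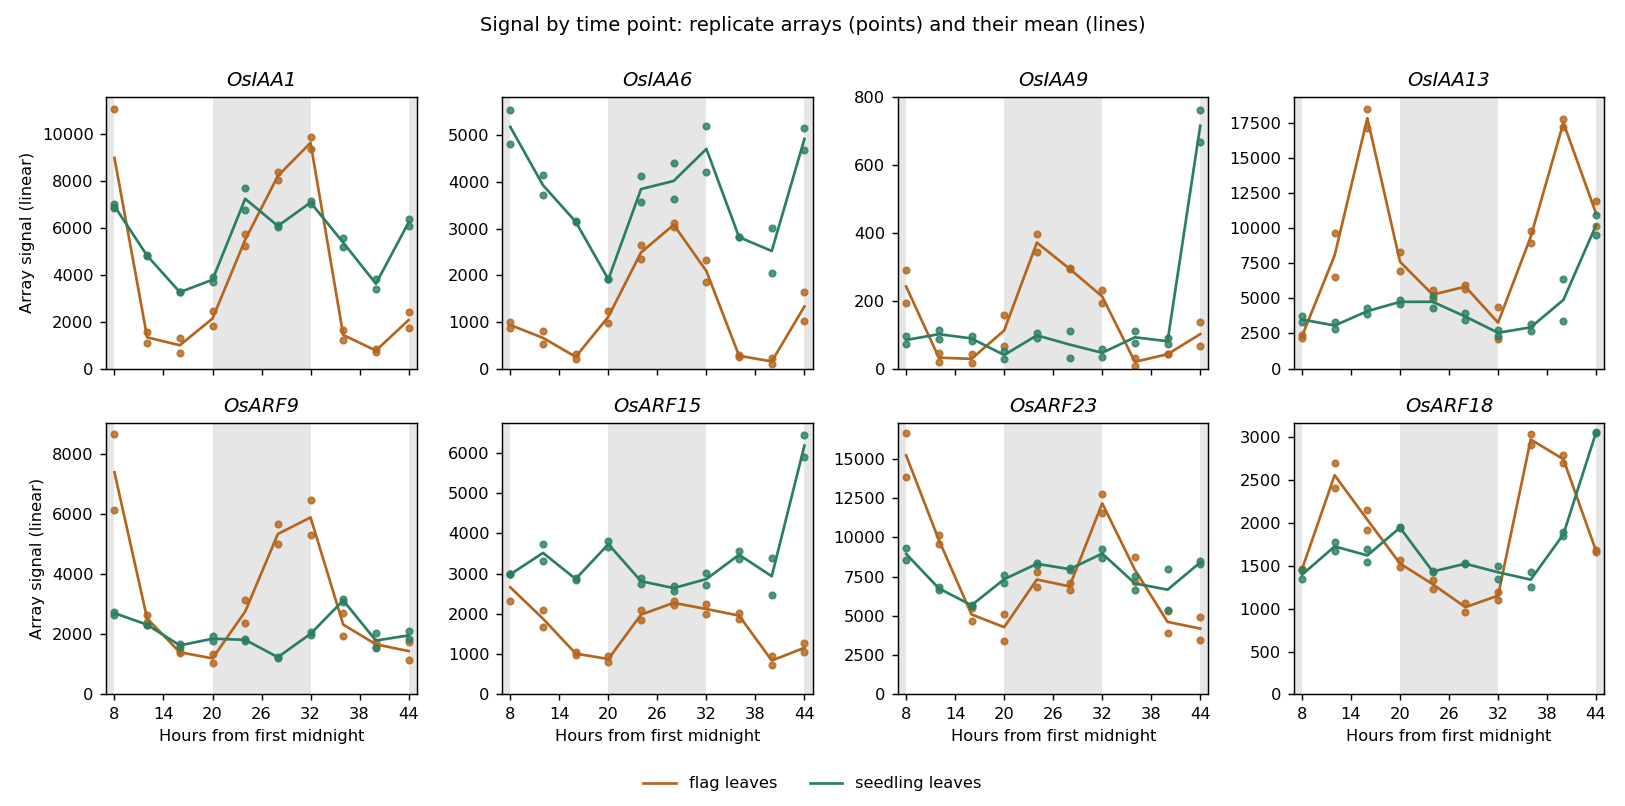
Linear array signal by hour from the first midnight for 4 AUX/IAA genes (top) and 4 ARF genes (bottom). Points are the 2 replicate arrays, lines their mean, in flag leaves and seedling leaves, and grey marks the dark. OsIAA1, OsIAA6 and OsIAA9 fall by day and climb at night in flag leaves, OsIAA13 and OsARF18 do the reverse, OsARF9 and OsARF23 are highest at 8 h and 32 h, and several seedling lines jump at 44 h.

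The remaining repressors named by amplitude were those of seedling leaves. OsIAA24 had similar amplitudes in both tissues, 0.70 ± 0.12 in flag leaves (adjusted p = 0.00013) and 0.75 ± 0.11 in seedling leaves (adjusted p = 8.2e-05), but peaked at 4.7 ± 0.6 h in flag leaves and 0.9 ± 0.5 h in seedling leaves. Its rhythms differed by 0.69 ± 0.15 (adjusted p = 0.0019), a call lost with either replicate series alone. OsIAA30, low as it was in flag leaves, kept a night peak in both, with 0.65 ± 0.17 at 1.7 ± 0.9 h in flag leaves (adjusted p = 0.0065) and 0.62 ± 0.09 at 23.5 ± 0.5 h in seedling leaves (adjusted p = 7.3e-05). The flag call was lost without replicate 2 or without 28 h, the hour at which both flag arrays were highest. OsIAA10, which the rice dwarf virus protein P2 binds and stabilises, had 0.57 ± 0.12 at 4.1 ± 0.8 h in flag leaves (adjusted p = 0.0014) and 0.58 ± 0.09 at 2.7 ± 0.5 h in seedling leaves (adjusted p = 0.00011). Its rhythms did not pass the test of a difference (0.20 ± 0.14, adjusted p = 0.48). The flag amplitude of OsIAA10 moved by more than 1.5 times without 28 h, and its flag call was lost with a single replicate series.

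OsIAA25 passed in seedling leaves alone, with an amplitude of 0.57 ± 0.09 (adjusted p = 0.00020) and a peak at 2.5 ± 0.6 h. In flag leaves it had 0.46 ± 0.19 (adjusted p = 0.10), and it passed there once 28 h was left out, an hour at which its replicates stood at 2752.3 and 2668.3 between 6787.9 and 5208 at 24 h and 6571.5 and 6414.9 at 32 h. The dip was shared by both replicates. The seedling call was lost without replicate 2.

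Among the response factors, OsARF9 had the largest amplitude in flag leaves, 1.19 ± 0.09 (adjusted p = 1.7e-08), with a peak at 6.0 ± 0.3 h. Its flag signals were 6130.7 and 8653.7 at 8 h, 1056.3 and 1345.2 at 20 h, and 5304.9 and 6480.4 at 32 h. In seedling leaves all 20 arrays lay between 1225.1 and 3172.7, lowest at 28 h and highest at 36 h, when the flag series was falling. The seedling rhythm did not pass (0.31 ± 0.11, adjusted p = 0.064), and did under 7 of 40 alternatives, among them without 44 h (adjusted p = 0.041), with a peak at 11.4 h. The rhythms differed by 1.20 ± 0.14 (adjusted p = 2.6e-07) under all alternatives run.

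OsARF15 had an amplitude of 0.73 ± 0.09 in flag leaves (adjusted p = 3.3e-06), with a peak at 6.0 ± 0.5 h, and 0.19 ± 0.10 in seedling leaves (adjusted p = 0.28). Flag arrays were lowest at 20 h (815.2 and 943.1) and 40 h (949.9 and 733.4) and highest at 8 h (2323.4 and 2994). The rhythms differed by 0.92 ± 0.14 (adjusted p = 9.6e-06). OsARF23 had 0.72 ± 0.09 at 7.5 ± 0.5 h in flag leaves (adjusted p = 6.2e-06) and 0.25 ± 0.06 at 3.8 ± 0.9 h in seedling leaves (adjusted p = 0.011), and its partner OsARF24 0.53 ± 0.09 at 6.3 ± 0.7 h and 0.32 ± 0.07 at 3.9 ± 0.8 h (adjusted p = 0.00015 and 0.0023). The fitted peaks of both lay in the dark in both tissues, that of OsARF23 in flag leaves close to the start of the light. The seedling calls of both genes were lost with a single replicate series, and that of OsARF23 without 16 h as well. For OsARF23 the rhythms differed by 0.61 ± 0.11 (adjusted p = 0.00014), though not without replicate 2, and for OsARF24 by 0.33 ± 0.11 at the edge of the threshold (adjusted p = 0.044), a call lost under 34 of 60 alternatives, among them either replicate series alone, 23 single arrays, and the loss of 44 h (adjusted p = 0.051).

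OsARF18 was one of 4 rhythmic ARF genes that peaked in the light in flag leaves. Its flag replicates had 2407 and 2699.9 at 12 h and 2902.5 and 3037.3 at 36 h, against 1069.1 and 965.1 at 28 h. In seedling leaves the arrays up to 40 h stayed between 1248.6 and 1952.7. The amplitude was 0.70 ± 0.09 in flag leaves (adjusted p = 3.8e-06, peak at 14.4 ± 0.4 h) and 0.28 ± 0.08 in seedling leaves (adjusted p = 0.026, peak at 19.5 ± 1.2 h), and the rhythms differed by 0.69 ± 0.12 (adjusted p = 0.00013). The difference was lost without replicate 2, and the seedling call under 8 of 40 alternatives, among them either replicate series alone and the loss of 20, 28, 32 or 36 h. Without 44 h the seedling amplitude of OsARF18 was 0.19 ± 0.06. OsARF12 was rhythmic in both tissues, with 0.58 ± 0.07 at 0.2 ± 0.4 h in flag leaves (adjusted p = 1.7e-06) and 0.42 ± 0.09 at 0.9 ± 0.8 h in seedling leaves (adjusted p = 0.0042). The difference of the rhythms did not pass (0.18 ± 0.11, adjusted p = 0.38), and the seedling call was lost without replicate 2. OsARF17 peaked at 5.6 ± 1.0 h in flag leaves, against 0.9 ± 0.6 h in seedling leaves, with amplitudes of 0.32 ± 0.08 in flag leaves and 0.36 ± 0.06 in seedling leaves. The flag call of OsARF17 was lost with either replicate series alone and the seedling call without replicate 2. OsARF10 was rhythmic in seedling leaves (0.40 ± 0.08, adjusted p = 0.0029, peak at 4.1 ± 0.8 h) and too dim to be tested in flag leaves. The seedling call of OsARF10 was lost with a single replicate series.

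In flag leaves most rhythmic genes of both families peaked in the dark. The windows used here were chosen after the peaks were seen. Of the 13 rhythmic AUX/IAA genes, 9 peaked in the dark, 7 of them from 2 h to 5 h and none from 5 h to 8 h. Of the 13 rhythmic ARF genes, 9 peaked in the dark as well, 8 of them from 5 h to 8 h and none from 2 h to 5 h. Among all rhythmic probe sets of flag leaves 12.9% peaked from 2 h to 5 h, 8.87% from 5 h to 8 h and 46.9% in the light. Outside these windows lay, among the repressors, OsIAA21 (0.1 h), OsIAA30 (1.7 h), OsIAA23 (10.7 h), which maintains the root quiescent centre, OsIAA2 (11.4 h), OsIAA5 (12.7 h) and OsIAA13 (16.9 h), and among the ARFs OsARF12 (0.2 h), OsARF16 (10.6 h), OsARF18 (14.4 h), OsARF14 (15.5 h) and OsARF2 (19.4 h). Samples lie 4 h apart and standard errors of the peaks reached 1.0 h, so the order of neighbouring genes is not resolved, such as OsIAA24 (4.7 ± 0.6 h) and OsARF17 (5.6 ± 1.0 h) on either side of 5 h. Within the windows, the flag calls of OsIAA10, OsIAA15, OsARF4, OsARF7, OsARF17 and OsARF22 were lost without replicate 2, and all but that of OsARF7 also without replicate 1. No test was made between families, whose genes are not replicates.

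In seedling leaves 11 of 12 rhythmic AUX/IAA genes and 5 of 6 rhythmic ARF genes peaked in the dark, where 45.7% of all rhythmic probe sets peaked in the light. Only OsIAA2 (15.8 h) and OsARF18 (19.5 ± 1.2 h) peaked in the light. OsIAA19, counted in the dark, peaked at 20.0 ± 1.2 h, so neither OsIAA19 nor OsARF18 can be placed on a side of 20 h. Without 44 h, 9 ARF genes were rhythmic, and OsARF4 (12.2 h), OsARF9 (11.4 h) and OsARF18 (18.6 h) peaked in the light. From 2 h to 5 h lay 4 AUX/IAA and 3 ARF peaks, and from 5 h to 8 h 1 and 0, where 21.7% and 12.6% of all rhythmic probe sets peaked. Of the 13 members rhythmic in both tissues, OsARF18 peaked 5.1 ± 1.3 h earlier in flag than in seedling leaves, OsIAA2 4.4 ± 1.2 h earlier and OsIAA13 4.2 ± 1.0 h earlier. OsARF17 peaked 4.7 ± 1.2 h later in flag leaves, OsIAA24 3.8 ± 0.8 h later and OsARF23 3.7 ± 1.1 h later. For OsIAA1 and OsARF12 the shifts were within their errors (-0.5 ± 0.7 h and -0.7 ± 0.9 h), and no member had peaks 6 h or more apart.

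**Figure D3:**
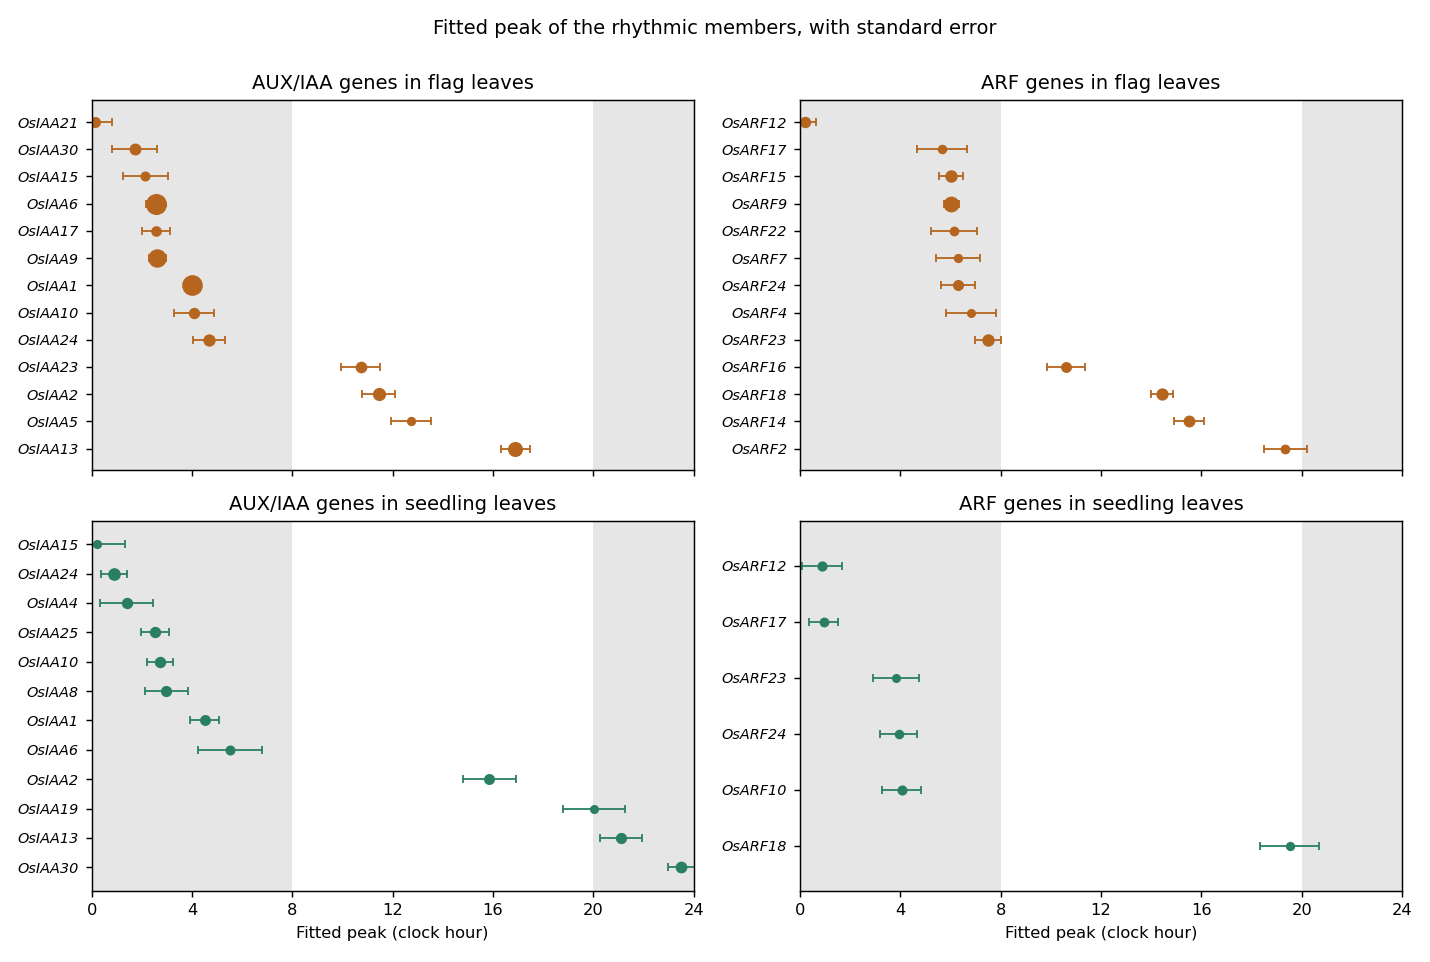
Fitted clock hour of the peak, with its standard error, for the rhythmic members, AUX/IAA left and ARF right, flag leaves above and seedling leaves below. Point size grows with the amplitude and grey marks the dark. In flag leaves 7 AUX/IAA peaks fall from 2 h to 5 h and 8 ARF peaks from 5 h to 8 h.

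The seedling series ended with a change on the second evening, noticed in the data rather than sought. At 44 h, the same clock hour as 20 h, both replicate arrays lay above the other 18 seedling arrays for 8 of 20 tested AUX/IAA genes, OsIAA9, OsIAA13, OsIAA15, OsIAA18, OsIAA19, OsIAA24, OsIAA30 and OsIAA31, and for 2 of 16 ARF genes, OsARF15 and OsARF18, against the 8.80% of all. Below the others was OsIAA21 alone, against the 12.8% of all. OsIAA9 had 669.4 and 762.7 at 44 h, against 28.8 and 51.4 at 20 h, around or below the array medians, so no fold is given. Its seedling mean of 142, by which it passed the filter in that tissue, rests on the 44 h arrays, since the median over all 20 was 89 and no other array was above 114.8. OsIAA31 averaged 1257 ± 34.6 at 44 h, against 408 ± 19.1 at 20 h (SD, n = 2 each), and OsIAA18 averaged 998 ± 106, against 312 ± 28.6. Replicates agreed closely at both hours for these genes, and the highest of all other arrays was 428.1 for OsIAA31 and 522.6 for OsIAA18. OsARF15 averaged 6177 ± 387 at 44 h and 3730 ± 98.2 at 20 h. OsIAA8, in contrast, had 287 ± 89.7 at 44 h and 967 ± 112 at 20 h. In flag leaves both arrays of 44 h lay above the other 18 for OsARF2 and for no tested AUX/IAA gene, where this held for 3.29% of all. The 2 evenings were not tested against each other, and whether the change belongs to the plants or to these arrays was not tested.

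**Figure D4:**
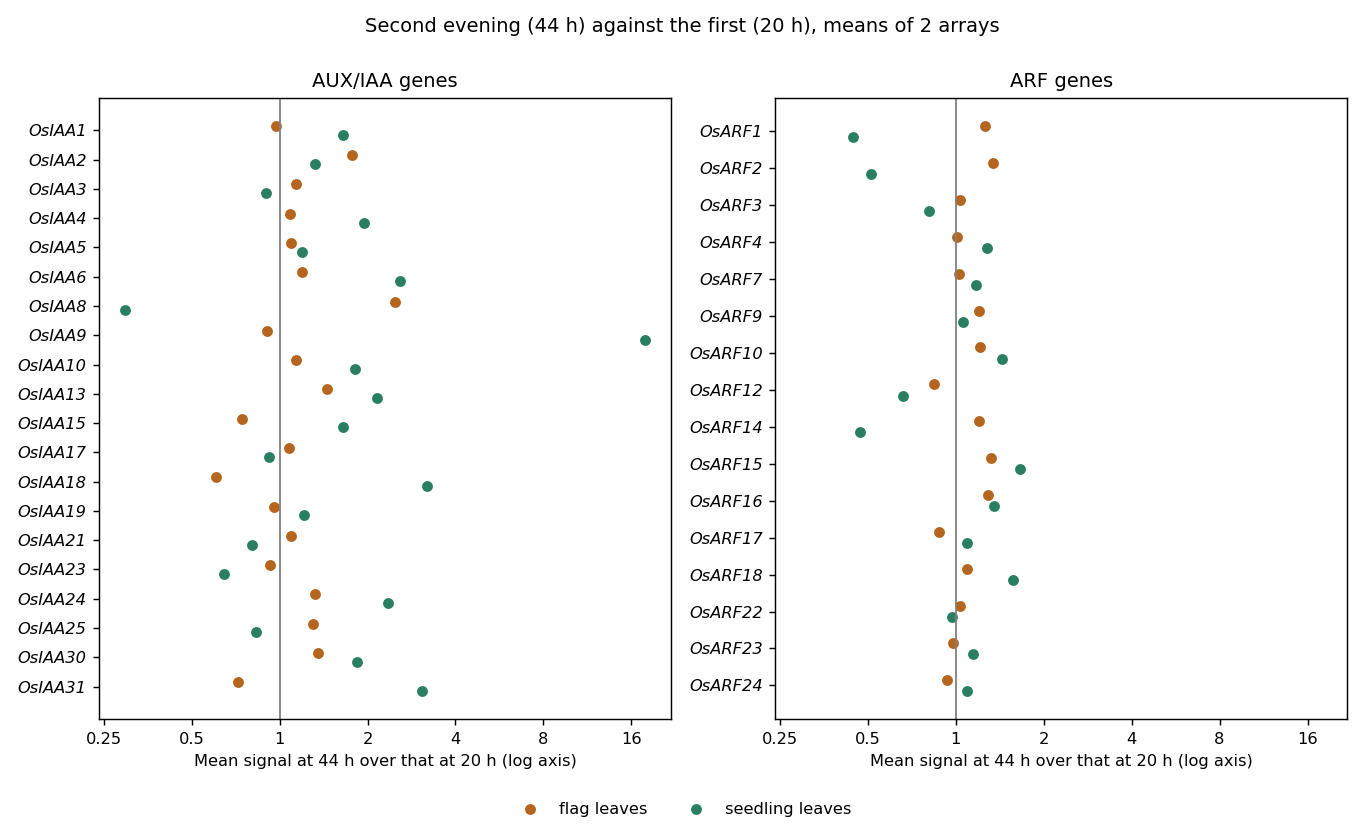
Mean signal of 2 arrays at 44 h over that of 2 arrays at 20 h, the same clock hour of consecutive days, on a log axis, for the members tested in the level comparison. Flag leaves stand above seedling leaves in each row. OsIAA9 of seedling leaves lies farthest to the right, but its signal at 20 h was around the array median, so the size of its ratio is uncertain, and OsIAA8 of seedling leaves lies farthest to the left.

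In the flag series, at 8 h both flag arrays lay above the other 18 for OsARF3, OsARF7, OsARF15 and OsARF23, 4 of 15 tested ARF genes, and for no AUX/IAA gene, where this held for 3.77% of all tested probe sets. OsARF23 had 13802.5 and 16603.3 at 8 h, against 12776.7 and 11537.1 at 32 h, the next end of night. OsARF3 had 2146.8 and 2060.9, against 1439.5 and 1479.3. These genes were picked for their signal at 8 h, and other hours had such genes too, as 28 h did for OsIAA6, OsIAA15 and OsIAA30, where this held for 5.01% of all.

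Several members had more than 1 probe set, 9 in all, and for OsIAA1, OsIAA23, OsARF2 and OsARF4 another probe set gave another call. The other OsIAA1 probe set averaged 103 in flag leaves and 89.2 in seedling leaves, and gave no level difference (0.15 ± 0.13, adjusted p = 0.31) and no rhythm difference. Its flag rhythm had an amplitude of 0.48 ± 0.11 and a peak at 6.1 h. For OsARF2 the dimmer probe set was again higher in flag leaves (0.58 on the log2 scale) but not rhythmic there (adjusted p = 0.10). For OsARF4 and OsIAA23 the other probe set gave no rhythm difference (adjusted p = 0.12 and 0.76) and kept the direction of the level. The probe sets of OsARF23 gave the same calls in all 4 tests. For OsIAA3, OsIAA8 and OsIAA31 the other probe set averaged below 100 in both tissues and was not tested. The means were 29.9, 17.6 and 7.4 in flag leaves and 48.7, 21.2 and 5.8 in seedling leaves. The level differences of these genes thus rest on a single probe set each.

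Other genes of the pathway were taken from lists matched by name. Some GH3 enzymes, though not all, attach amino acids to auxin and thereby inactivate it. Of 9 GH3 genes measured, 5 were tested for the level, 2 were higher and 3 lower in flag leaves, where 39.3% and 38.3% of all probe sets were. In flag leaves 4 of 5 were rhythmic, near the 69.5% of all, and in seedling leaves 1 of 5, where 42.5% of all were. OsGH3-2 had 218.7, 1150.65 and 5016.3 in flag leaves and 164.6, 314.4 and 1908.6 in seedling leaves, higher by 1.42 ± 0.11 (adjusted p = 4.5e-11) with overlapping ranges. It peaked at 8.4 h in flag leaves and 23.9 h in seedling leaves, with amplitudes of 1.74 ± 0.18 and 0.93 ± 0.20 (adjusted p = 7.2e-07 and 0.0039). OsGH3-5 also peaked near the start of the light in flag leaves, at 8.7 h (0.53 ± 0.10, adjusted p = 0.00038), and OsGH3-7 was lower in flag leaves, with a difference of -0.98 ± 0.08 (adjusted p = 7.1e-11).

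SAUR39, a small auxin-responsive gene that lowers auxin synthesis and transport in rice, had the widest swing of all pathway genes. Its signals were 175.2, 1486.35 and 17326.1 in flag leaves and 4391.2, 9351.9 and 17981.9 in seedling leaves. The amplitude was 2.92 ± 0.24 at 0.8 h in flag leaves (adjusted p = 4.0e-08) and 0.71 ± 0.07 at 1.3 h in seedling leaves (adjusted p = 1.1e-06), and the level was lower in flag leaves by a log2 difference of -2.13 ± 0.09. Flag and seedling leaves thus reached similar highs.

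Of 5 PIN auxin carriers measured, 3 were tested, 2 higher and 1 lower in flag leaves, where 39.3% and 38.3% of all probe sets were. OsPIN5a, the one that passed the filter in both tissues, was higher by 1.16 ± 0.08 (adjusted p = 1.5e-12). A gene that RefSeq lists as OsPIN4, OsPIN5b and OsPIN5c, names it shares in part with another gene that was not analysed here, had 18.3, 483.25 and 1364.5 in flag leaves and 1.1, 30.9 and 57.2 in seedling leaves. Every seedling array was below 100, so the gene was tested through flag leaves alone and had to be higher there. Its flag rhythm had an amplitude of 1.85 ± 0.24 with a peak at 14.1 h (adjusted p = 7.2e-06). OsPIN3a averaged 22.6 in flag leaves and 145 in seedling leaves, and passed the filter through seedling leaves alone, where it had to be the higher.

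Of the co-repressors, the TOPLESS-related OsTPR2 was rhythmic in both tissues, with 0.81 ± 0.09 at 2.1 h in flag leaves (adjusted p = 6.2e-07) and 0.38 ± 0.08 at 4.5 h in seedling leaves (adjusted p = 0.0024). It was lower in flag leaves by a log2 difference of -0.20 ± 0.06. OsTPR1 was not rhythmic at the threshold in either (adjusted p = 0.050 and 0.99). Of the synthesis genes, FIB, also OsTAR2, an aminotransferase that starts auxin synthesis from tryptophan, was higher in flag leaves by 0.56 ± 0.07 (adjusted p = 1.1e-07). It peaked at 23.1 ± 1.3 h in flag leaves and at 20.1 ± 0.9 h, around the end of the light, in seedling leaves. OsYUCCA1, which catalyses the step after it, averaged 57.2 in flag leaves and 199 in seedling leaves, and passed the filter through seedling leaves alone, where it had to be the higher. The single match to the receptor list, OSK1, is also listed as the protein kinase SnRK1A, so receptors were not analysed here.

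A list for dividing cells held cyclins, CDKB genes, PCNA and KRP genes, which encode inhibitors of cyclin-dependent kinases. Of its 13 genes measured, 8 were tested, KRP1, KRP4, KRP5 and KRP6 among them, 3 higher and 3 lower in flag leaves. KRP6 and CYCA3-2 were tested through seedling leaves alone and CYCA2-1 through flag leaves alone, which fixed their direction. Summed signals were 5258 to 7869 in flag leaves and 4666 to 7385 in seedling leaves. KRP1 gave the largest part, with means of 3115 and 2010. The B-type cyclins and CDKB2 were below a mean of 100 in both tissues. The largest difference of that list was in KRP6, an inhibitor of cyclin-dependent kinases, with means of 33.8 in flag leaves and 800 in seedling leaves. Of 5 senescence genes, SGR, NOL and OsRCCR1 were lower in flag leaves and NYC1 higher, with summed signals of 8268 to 25068 in flag leaves and 10300 to 25140 in seedling leaves. Of 13 root genes measured, 5 were tested, 4 higher and 1 lower in flag leaves, and of 8 floral genes measured, 3 were tested, 2 higher and 1 lower, where 39.3% of all probe sets were higher and 38.3% lower. The part of cell composition in the level differences was not tested.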

How the data were processed

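Leaf RNA was hybridised to Affymetrix Rice Genome arrays. The authors deposited linear signal intensities made with MAS5 in GCOS, whose version is not given in the sources used here, scaled to a target of 500. Of 57381 entries, 187 controls were left out. Some labels give 12:00am where the study's methods give noon, and every description names seedlings, so tissue came from the titles and hours from the methods. Gene names came from the platform annotation and RefSeq: 22436 probe sets list 1 gene, 95 several and 34663 none. RefSeq writes most members without the prefix Os, which was therefore taken as optional.

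Values were analysed as log2(signal + 32) with limma 3.58.1 in R 4.3.3, for probe sets averaging 100 or more, with Benjamini-Hochberg adjustment over all of them. Rhythms were moderated F tests of a 24 h cosine and sine with a linear time term, per tissue (20 arrays) or between tissues (40 arrays). Levels were contrasted over 20 tissue-by-time means. Diurnal genes by the study's criteria needed a replicate correlation of at least 0.5 and, in both replicates, a cross-correlation p or ARSER q of at most 0.05, with ARSER rewritten from its description in Python 3.11.15 (numpy 2.4.6, scipy 1.17.1). Scripts were tested on simulated data. The number of arrays limits the precision, and where nothing says that replicates came from separate plants, p-values measure only the spread between samples.

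Same-numbered replicates deviated together: all 45 pairs of time points in each tissue correlated over 0.1 (0.219 to 0.484 in flag leaves, 0.288 to 0.562 in seedling leaves), so a fit with the replicate number as a block was run. Other alternatives were the constant, the filter, quantile normalization, the model and leaving out arrays, time points or a replicate series.

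The members and lists were chosen with earlier results of these data known. Genes named per family were the 4 largest amplitudes per tissue, the 3 most higher and 3 most lower in flag leaves, the 3 largest rhythm differences, members whose probe sets differ in call and, per pathway list, up to 2 genes with the smallest adjusted p per tissue. Others were named after their values were seen. No sequences were used here.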

Additional observations from a re-analysis of the deposited data

Results flagged for a closer look

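The 24 h rhythm differed between flag and seedling leaves, by limma's F test of the difference itself, for 21 members. Among the AUX/IAA genes the amplitude of the difference was 1.66 for OsIAA6 and 1.66 for OsIAA9, 1.36 for OsIAA1, 0.97 for OsIAA13, 0.77 for OsIAA2 and 0.69 for OsIAA24. It was 0.51 for OsIAA21 and 0.51 for OsIAA23, 0.39 for OsIAA19 and 0.37 for OsIAA17. Among the ARF genes it was 1.20 for OsARF9, 0.92 for OsARF15, 0.69 for OsARF18, 0.62 for OsARF16, 0.61 for OsARF23 and 0.51 for OsARF14. It was 0.44 for OsARF22, 0.39 for OsARF17, 0.33 for OsARF24, 0.30 for OsARF4 and 0.30 for OsARF7. The calls of OsIAA1, OsIAA6, OsARF9 and OsARF15 held under all alternatives run, and the other 17 were lost with 1 replicate series or both left out in turn.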

How the results depend on the processing

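Among 96 called results of single members, 49 held under every alternative run, 26 of 31 level differences, 16 of 26 flag rhythms, 3 of 18 seedling rhythms and 4 of 21 rhythm differences. No level difference of the 22 genes followed under all settings changed direction. Amplitudes and rhythm differences are never negative, so they could not change direction. Leaving out arrays, time points or a replicate series gave 9 to 14 rhythmic AUX/IAA and 7 to 15 rhythmic ARF genes in flag leaves, 3 to 12 and 0 to 9 in seedling leaves, and 2 to 11 in each family for the rhythm difference. It gave 13 to 16 AUX/IAA genes lower and 2 to 3 higher in flag leaves, and 7 to 8 ARF genes lower and 5 to 7 higher. With the replicate number as a block, 14 AUX/IAA and 13 ARF genes were rhythmic in flag leaves, 13 and 7 in seedling leaves, and 12 and 11 differed. The block ended no call. Where only genes written with the prefix Os counted as ARF, 4 were rhythmic in flag leaves, 3 in seedling leaves, 3 differed, 1 was lower and 1 higher, since 5 genes were left. That setting and the level without a replicate series were chosen after seeing the data. With ARSER and the replicate correlation alone, 6 AUX/IAA and 2 ARF genes were diurnal in flag leaves, and 1 and 0 in seedling leaves, and the cause was not tested. Platform symbols alone named no member and gave no value. Signals near the median of an array, as for OsIAA31 and OsIAA8 in flag leaves, limit the size of a fold.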
